A study of Mus musculus with 12 samples.

Results

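The remainder libraries are 3 RNA-seq libraries of mouse macrophages, 1 for each of 3 mice, that were recovered by arithmetic from the 12 deposited columns of gene counts. The cells were bone marrow-derived macrophages (BMDMs), which form when whole bone marrow is cultured with macrophage colony-stimulating factor, here from female C57Bl/6J mice and used on day 7. From each mouse, 1 culture stayed untreated and others were exposed for 16 hr to 100 ng/mL Wnt3a, to 100 pg/mL IL-4, or to both, so that every group shares the mice, the strain and the growth factor and no group carries a genetic change. Within each mouse the Wnt3a and the Wnt3a+IL4 columns are nested sums. The Wnt3a column minus the Wnt3a+IL4 column gives a library called the difference, and 2 times the Wnt3a+IL4 column minus the Wnt3a column gives the remainder. The labels do not prove which culture the remainder came from. If the labels of those columns hold, its cells had received Wnt3a, and whether they had also received IL-4 is not settled here and was not decided from any value. No remainder count was negative in any of 48526 genes when both columns came from the same mouse, whereas between 2470 and 6300 genes went negative when the columns were taken from different mice.

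The remainder libraries held 16998867, 16411730 and 15707213 counts in mouse 1, 2 and 3, and the untreated libraries of the same mice held 17031873, 15381184 and 15514808. At least 1 count was seen for 21899 genes in these 6 libraries. Levels are given as CPM, counts scaled to a common library size after adjustment by TMM, a normalization that sets most genes level between libraries, and they are not corrected for gene length. Differences are log2 fold changes, remainder over untreated, with their standard error (SE) and an adjusted p from edgeR's quasi-likelihood test with the mouse as a block, and a gene was called at an adjusted p under 0.05. The p-values measure the spread between cultures of 3 mice.

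Marker genes bear on what the cells were. Of 10 markers of BMDMs, all passed the count filter and their summed level was 62800 to 63300 CPM in the remainder and 57700 to 65000 CPM in untreated cells. Neutrophil markers summed to 321 to 340 CPM against 238 to 288 CPM, with at most 1 count of Ly6g in any of these libraries. Of 10 of them tested, 3 were called higher and 4 lower (70.0%, beside 23.0% of all genes). Stromal and endothelial markers summed to 21.4 to 35.5 CPM against 13.3 to 26.3 CPM, with Lum and Pdgfra at 0 counts. Of 7 of them tested, 2 were called higher and 1 lower (42.9%). The log2 ratios of their sums were 1.42, -0.30 and -0.19 in mouse 1, 2 and 3. Mast cell and basophil markers summed to 2.95 to 4.27 CPM against 4.44 to 5.14 CPM, and of 2 tested, 1 was called higher and 1 lower. T, B and NK cell markers summed to 11.5 to 13.6 CPM against 81.2 to 89.1 CPM, with Ighm at 73.2 to 81.1 CPM of the untreated sums and 4.53 to 5.85 CPM of the remainder sums, while Cd3g and Trac were at 0 counts. Dendritic cell markers stood apart, at 242 to 269 CPM in the remainder and 23.0 to 27.9 CPM in untreated cells, and nearly all of that was Itgax. Of the 4 tested, Itgax, Ccr7 and Zbtb46 were called higher and Cd209a lower, from 1.29, 1.29 and 0.690 CPM to 0.186, 0 and 0 CPM. Of those 10 markers, 6 did not pass the filter, Flt3, Xcr1 and Clec9a among them, with at most 6 counts in any of the 6 libraries. Erythroid markers were at or under 0.708 CPM in each library. The part of these marker levels in the results was not tested. In bulk samples, fewer cells of a type and less RNA per cell cannot be told apart.

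Macrophages change their gene expression with the signals around them. Wnt ligands such as Wnt3a bind Frizzled receptors and stabilize β-catenin, which acts with TCF/LEF factors on target genes. IL-4 signals through JAK kinases and STAT6 and raises a set of genes linked to tissue repair. Interferons act through STAT factors on antiviral and antigen presentation genes, and bacterial products act through Toll-like receptors and NF-κB on cytokines and chemokines.

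To ask how far the remainder departed from untreated cells, all 12421 genes with enough counts were tested. Of these, 2858 (23.0%) were called, 1549 higher (12.5%) and 1309 lower (10.5%) in the remainder. Most of the called differences were small, since 916 were under 0.5 and 1050 between 0.5 and 1 in size on the log2 scale. At the other end, 115 genes differed by 3 or more, of which 97 were higher and 18 lower. Called genes moved the same way in all 3 mice in 2791 cases (97.7%), against 5603 (45.1%) of all genes tested. The 3 remainder values lay outside the range of the 3 untreated values in 2738 of the called genes, and in 35.6% of all genes tested. Since the calls were made on these same mice, both figures for called genes follow largely from the selection and are no separate evidence.

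The change reached a large share of the messenger RNA. Genes called higher held 19.3% to 19.7% of the CPM in the untreated libraries and 29.1% to 30.8% in the remainder libraries. Genes called lower held 15.0% to 15.4% in untreated and 8.25% to 9.27% in remainder libraries. Since the calls chose these genes, these shares describe the size of the shift. Mouse 3 bore much on the number of calls, with 1165 genes called without it, and a fit on the 6 compared libraries alone called 1235. Scaling by total count alone moved the median of all genes from -0.02 to -0.13 and turned the split to 1226 higher and 2067 lower.

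**Figure D1:**
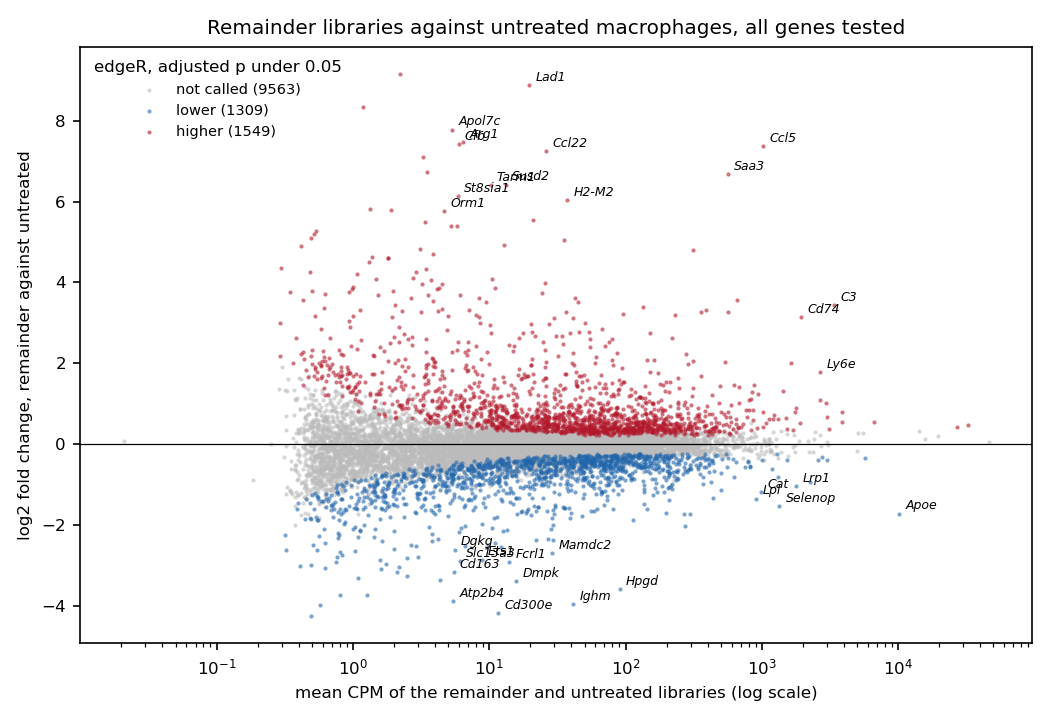
Each point is 1 of 12421 genes, with its mean CPM over the 3 remainder and 3 untreated libraries on the x axis (log scale) and its log2 fold change, remainder against untreated, on the y axis. Genes called higher (1549, red) reach above 8, genes called lower (1309, blue) end near -4, and the named genes are the steepest at 8 CPM or more in one group, or changed most in CPM.

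Among genes with at least 8 CPM in the higher group, the steepest rise was in Lad1 (ladinin, a filament-associated protein of epithelial basement membranes, ENSMUSG00000041782, chromosome 1, 135818598 to 135833342 in GRCm38). Its level was 0.0538, 0.0643 and 0.125 CPM in untreated mouse 1, 2 and 3 and 54.7, 33.8 and 29.5 CPM in the remainder. The groups were far apart, with a log2 fold change of 8.87 (SE 0.34, adjusted p = 1.1e-08), or 8.28 without mouse 1. Apol7c, an apolipoprotein L gene, rose from 0 to 0.108 CPM to between 6.31 and 13.4 CPM, a ratio of 268 (95% interval 73.8 to 2220 by counting error). Since 25.6% of its 50-base stretches are shared with other genes, its count is uncertain. Arg1, Cfb, Ccl5, Ccl22, Saa3, Susd2, Tarm1, St8sia1, H2-M2 and Orm1 completed the 12 steepest rises, with log2 fold changes from 5.77 to 7.47. Without mouse 1, which held the few untreated counts of Apol7c and Cfb, their values moved to 10.12 and 10.52, and that of Susd2 moved from 6.42 to 5.82.

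The steepest fall was in Cd300e, an activating receptor of monocytes, from 19.1, 22.8 and 24.4 CPM to 1.55, 0.922 and 1.18 CPM (log2 fold change -4.18, SE 0.25, adjusted p = 3e-07). Next came Ighm, the immunoglobulin mu heavy chain gene, which went from 77.1, 81.1 and 73.2 CPM to 4.53, 4.79 and 5.85 CPM (-3.94, SE 0.19, adjusted p = 6.6e-08). Fcrl1, a receptor of the Fc receptor-like family, fell by 2.91 and the transcription factor gene Ets1 by 2.85 on the log2 scale. Of the B cell genes Cd79b and Cd79a, Cd79b had a log2 fold change of -0.06 without a call. Cd79a was too low for the count filter, with at most 5 counts in a library, so its change was not tested. The source of the falls of Ighm, Fcrl1 and Ets1 was not tested. Atp2b4 (a calcium pump), Hpgd, Dmpk, Cd163, Slc13a3, Mamdc2 and Dgkg were also among the 12 steepest falls.

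By the change in CPM, other genes led. C3, the central complement protein, rose from 506, 505 and 694 CPM to 6300, 6370 and 5918 CPM, 10.9-fold by the means. Cd74, the MHC class II invariant chain, rose from 391 ± 20.7 CPM to 3497 ± 342 CPM (SD, n = 3 each). The largest gain in CPM was in Fth1, the ferritin heavy chain, which held 24650, 28480 and 27920 CPM in untreated cells and 40880, 35910 and 36360 CPM in the remainder (0.48, SE 0.12, adjusted p = 0.01). The largest loss was in Apoe, the lipid-carrying apolipoprotein E, from 11570, 18080 and 17280 CPM to 3657, 6124 and 4559 CPM (-1.71, SE 0.17, adjusted p = 1.9e-05). Even the lowest untreated library was above the highest remainder library for Apoe, although mouse 1 stood below the other two in both groups. Lipa, Mpeg1, Selenop, Lrp1, Sirpa, Lpl and Cat followed it among the losses, and Psap, Ly6e, Ctss, B2m and Ccl5 were the other gains. Without mouse 3, Fth1, Psap, Ctss, Mpeg1 and Sirpa were not called. Psap and Mpeg1 were also not called without mouse 1, nor were Mpeg1 and Sirpa without mouse 2.

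Of 30 tested components and targets of the Wnt pathway, 2 were called higher, 10 lower and 18 not called. The share called was 40.0%, beside 23.0% of all genes, and the list's median was -0.28 beside -0.02 for all genes. Ctnnb1, which encodes β-catenin, rose from 538, 491 and 494 CPM to 764, 798 and 775 CPM (0.62, SE 0.09, adjusted p = 0.00022). Fzd1, a Frizzled receptor, was the other rise, at 0.95. Dkk2, a secreted Wnt modulator, fell by 2.78, Rnf43, which encodes a ligase that removes Frizzled receptors, by 1.34 and Tcf7l2, the TCF4 transcription factor gene, by 1.16. Without mouse 3, 2 genes of the list were called higher and 5 lower, and without mouse 1 it was 2 and 6. Rnf43 was not called without mouse 1 or without mouse 3.

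The Wnt target Axin2, a scaffold of the β-catenin destruction complex, was too low for the count filter. It had 11, 9 and 13 counts in the remainder libraries of mouse 1, 2 and 3 and 0, 0 and 1 counts in the untreated libraries. All 3 remainder counts were above all untreated counts, with a ratio of 34.7 that counting error alone places between 5.81 and 1410. With every gene of at least 1 count admitted, its adjusted p against untreated cells was 0.00011. In the difference libraries of mouse 1, 2 and 3 it had 1, 1 and 5 counts. Lef1, another target, had 0 counts in the remainder and 2, 0 and 0 in untreated cells, so a difference was not detectable at this depth.

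The next list holds the genes of prostaglandin E2 (PGE2). Cyclooxygenases and PGE synthases make PGE2, Hpgd encodes the dehydrogenase that starts its breakdown, and the Ptger genes encode its receptors. Of 16 genes tested, 6 were called higher and 1 lower (43.8%, beside 23.0% of all genes), and without mouse 3 it was 3 and 1. Ptgs2, the inducible cyclooxygenase, rose from 1.08, 0.515 and 0.753 CPM to 7.52, 9.46 and 5.91 CPM (3.29, SE 0.32, adjusted p = 1.4e-05). Ptges, the inducible PGE synthase, rose by 1.32 (SE 0.17, adjusted p = 0.00011), and Ptgs1, the constitutive cyclooxygenase, by 1.14.

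Hpgd was the one fall, and a steep one. Its level was 184, 158 and 159 CPM in untreated cells and 8.38, 19.8 and 15.3 CPM in the remainder (-3.57, SE 0.23, adjusted p = 5.3e-07), so that untreated means were 11.5-fold higher. Among receptors, Ptger2 rose by 0.43 (adjusted p = 0.018), a call lost without mouse 1 or mouse 3, while Ptger4 stayed at 33.5 to 46.2 CPM against 39.1 to 40.4 CPM, with overlapping groups. Set against the difference libraries, Ptgs1 was 1.72 higher in the remainder, Hpgd was 0.94 lower, and Ptgs2, Ptges and both receptors were not called. Other eicosanoid genes, of which 4 of 10 were higher and 2 lower (3 and 1 without mouse 3), included rises of Ptgir, the prostacyclin receptor (1.56), and Ltc4s, the leukotriene C4 synthase (1.19), and falls of Hpgds, the hematopoietic prostaglandin D synthase (-1.51, not called without mouse 3), and Alox5, the 5-lipoxygenase (-1.33).

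**Figure D2:**
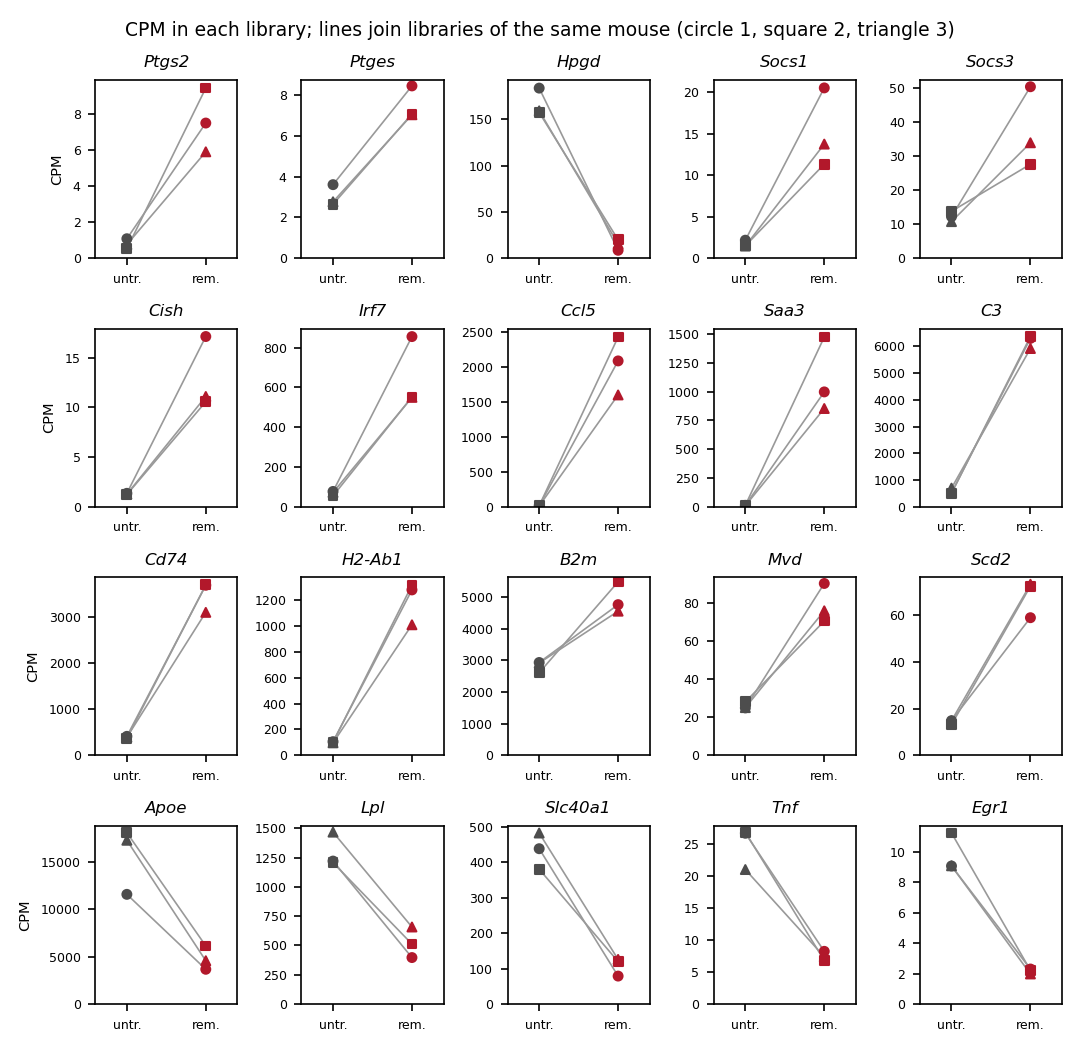
Each panel shows 1 gene, with CPM on the y axis from 0 and the untreated (dark) and remainder (red) library of each mouse joined by a line. In all 20 genes the 3 lines run the same way, up for Ptgs2 to Scd2 other than Hpgd, and down for Hpgd, Apoe, Lpl, Slc40a1, Tnf and Egr1.

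Genes of JAK-STAT signaling moved both ways. Of 43 genes tested, 18 were called higher and 6 lower (12 and 3 without mouse 3). The share called was 55.8%, beside 23.0% of all genes. The falls were near the share of all genes called lower (10.5%). Cish, a STAT-induced inhibitor of cytokine receptors, rose from 1.34, 1.22 and 1.25 CPM to 17.1, 10.6 and 11.1 CPM (3.32, SE 0.24, adjusted p = 1e-06). Socs1 rose from 2.15, 1.48 and 1.44 CPM to 20.5, 11.3 and 13.7 CPM (3.15, SE 0.18, adjusted p = 1.6e-07). Remainder values lay several-fold above untreated ones in every mouse, and mouse 1 was highest for both genes. Socs2 rose by 2.50 and Socs3, an inhibitor of signaling through gp130, by 1.58.

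Signal transducers of the same list differed among themselves. Jak2 (1.69), Stat2 (1.46) and Stat3 (0.47) rose, whereas Stat6, the transducer of IL-4, was at 334, 313 and 322 CPM against 332, 390 and 368 CPM and was not called (-0.17, adjusted p = 0.18). Of receptors, Csf2rb, the shared β chain for GM-CSF and IL-3, rose by 1.47, and Ifngr1 fell by 0.87. Jak2 and Stat2 were named after their values were seen. Socs1 and Cish were also higher in the remainder than in the difference libraries, by 1.92 and 1.43, which Socs3 and Stat3 were not, with log2 differences of -0.28 and -0.15.

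Interferon-stimulated genes rose together. Of 32 type I interferon-stimulated genes tested, 28 were called higher and 0 lower (87.5%, beside 23.0% of all genes), with a median log2 fold change of 1.34. Irf7, the transcription factor that amplifies interferon production, rose from 76.5, 54.0 and 71.4 CPM to 855, 551 and 549 CPM, 9.68-fold by the means (3.26, SE 0.17, adjusted p = 7.5e-08). Oasl1 and Oasl2, members of the oligoadenylate synthetase family, rose by 2.54 and 2.23. At an unadjusted p under 0.05, 30 were higher and 0 lower, and DESeq2 called 28 and 0. It was 19 and 0 without mouse 3, and 23 and 0 with scaling by total count or with only the compared libraries. The 4 without a call were Ifit3b, Rsad2, Ifi204 and Herc6, with log2 fold changes from -0.19 to 0.72. In the guanylate-binding and immunity-related GTPases, which attack the vacuoles of intracellular microbes, 9 of 13 were called higher and 0 lower (69.2%). Gbp2 rose from 20.1, 14.2 and 14.6 CPM to 129, 121 and 103 CPM (2.85, SE 0.11, adjusted p = 1.2e-08). Gbp6 rose by 4.60 (5.63 without mouse 1), but 70.7% of its 50-base stretches occur in other genes.

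Antigen presentation genes of both classes followed the same direction. In the MHC class II list, 12 of 16 were called higher and 0 lower (75.0%, beside 23.0% of all genes), with a median of 1.83. H2-Ab1, a class II β chain, rose from 105, 101 and 96.4 CPM to 1280, 1317 and 1010 CPM, 11.9-fold by the means (3.57, SE 0.13, adjusted p = 8.4e-09). H2-Eb1 and H2-Aa rose by 3.33 and 3.26, and Ciita, the class II transactivator named after its values were seen, rose by 2.78. Not called were H2-DMb2 and the constitutive regulators Rfx5, Rfxap and Rfxank. In the MHC class I list, 18 of 20 were called higher and 0 lower, with a median of 1.00. B2m, the class I light chain, went from 2930, 2607 and 2914 CPM to 4757, 5478 and 4550 CPM (0.81, SE 0.11, adjusted p = 0.00018). H2-D1, which had the highest CPM of the list, was not called at 0.28. H2-Q6 and H2-Q7 rose by 2.64 and 2.67, with 35.0% and 26.5% of their 50-base stretches shared with other genes.

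The start regions of some of these genes are shown because interferon, STAT and NF-κB regulators are known by short DNA motifs. Only genes with a match were picked. The start regions of Irf7, H2-D1, H2-Q6, H2-Q7 and Ccl22 held no match to any motif searched. Sequences are from RefSeq (GRCm38.p6), 5′ to 3′ on the strand of the gene, with capitals marking motif matches on either strand. Windows of 250 bases before to 50 after each start were searched on both strands for 7 motifs. Shares of all 7 are given below, and 4 motifs are described here. These were the interferon-stimulated response element (ISRE, GAAA and GAAA separated by any 2 bases), the STAT site (TTC and GAA) with a spacer of any 3 bases, the same site with the 4-base spacer that STAT6 is known to prefer, and the NF-κB site (GGGA and TTCC separated by any 2 bases). In B2m an ISRE and an NF-κB match lie side by side, in Gbp2 there is 1 of each, in Socs1 a pair of overlapping ISRE matches, in Cish a pair of matches to the 3-base spacer, in Ccl17 1 match to each spacer, and in Pdcd1lg2 1 match to the 4-base spacer.
B2m (chr2:122147488-122147630, + strand): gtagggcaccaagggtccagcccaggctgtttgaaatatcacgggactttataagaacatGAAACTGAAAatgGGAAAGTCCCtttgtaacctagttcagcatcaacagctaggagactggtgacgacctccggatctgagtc
Gbp2 (chr3:142620544-142620692, + strand): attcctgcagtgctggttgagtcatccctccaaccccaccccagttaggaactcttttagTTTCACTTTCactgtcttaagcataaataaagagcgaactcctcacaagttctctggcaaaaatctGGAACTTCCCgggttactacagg
Socs1 (chr16:10785544-10785679, - strand): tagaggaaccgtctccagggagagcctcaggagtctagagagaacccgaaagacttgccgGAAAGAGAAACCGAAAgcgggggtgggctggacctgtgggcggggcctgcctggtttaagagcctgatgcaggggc
Cish (chr9:107296599-107296688, + strand): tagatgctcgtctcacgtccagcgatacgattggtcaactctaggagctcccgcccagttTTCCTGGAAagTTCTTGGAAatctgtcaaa
Ccl17 (chr8:94810239-94810422, + strand): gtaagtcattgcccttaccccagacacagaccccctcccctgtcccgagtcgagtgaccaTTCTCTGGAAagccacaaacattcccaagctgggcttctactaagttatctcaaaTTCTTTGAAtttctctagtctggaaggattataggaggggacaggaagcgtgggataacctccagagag
Pdcd1lg2 (chr19:29410777-29410906, + strand): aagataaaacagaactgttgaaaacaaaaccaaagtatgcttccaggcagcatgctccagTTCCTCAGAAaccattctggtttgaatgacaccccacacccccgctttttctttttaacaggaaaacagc

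Across all 32851 RefSeq windows, 3.44% held the ISRE motif, 6.95% the STAT site with a 4-base spacer, 8.30% the one with a 3-base spacer and 1.47% the NF-κB motif. The ISRE stood in 6.01% of the windows of genes called higher, 2.53% of those called lower and 2.96% of those not called. In the same sets, the 3-base spacer stood in 6.71%, 6.02% and 6.81%, and the 4-base spacer in 6.46%, 5.35% and 5.38%. The NF-κB motif stood in 2.05%, 1.26% and 1.5%, and the TCF/LEF motif in 2.49%, 2.53% and 2.47%. For the cAMP response element it was 2.69%, 2.01% and 3.32%, and for the sterol element 1.21%, 1.34% and 1.13%. In the type I interferon list the ISRE stood in 15 of 29 windows (51.7%), in the guanylate-binding list in 8 of 9 (88.9%) and in the class I list in 4 of 19 (21.1%). The 4-base spacer stood in 6 of 29 windows of the IL-4 response markers (20.7%) and in 7 of 29 of the type I interferon list (24.1%). The 3-base spacer stood in 5 of 9 windows of the guanylate-binding list (55.6%) and in 4 of 29 of the IL-4 response markers (13.8%). The sterol element stood in 1 of 28 windows of the cholesterol and fatty acid synthesis list (3.57%). Other pairs of list and motif are not all given. The NF-κB motif stood in 4 of 19 windows of chemokine ligands (21.1%) and in 2 of 9 of the guanylate-binding list (22.2%). A match is a description of the letters and not of a bound site. Windows were matched by symbol for 9480 of the genes tested.

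Genes known as markers of the IL-4 response rose in the remainder, with exceptions. Of 27 tested, 21 were called higher and 2 lower (85.2%, beside 23.0% of all genes), with a median of 1.67. Without mouse 3, 16 of 23 were higher and 2 lower. Arg1, the arginase that competes for arginine with nitric oxide synthase, was at 0, 0.129 and 0.0627 CPM in untreated cells and at 25.0, 5.96 and 7.49 CPM in the remainder. Its SD of 10.6 around a mean of 12.8 CPM was wide because mouse 1 stood above the others, and the ratio of 215 had a counting interval from 73.2 to 1050. Its log2 fold change of 7.47 moved to 6.02 without mouse 1 and to 8.76 without mouse 2. Ccl17, a chemokine for CCR4, had 0 counts in all untreated libraries and 4.72, 0.922 and 1.45 CPM in the remainder, at least 13.1-fold higher with a floor of 3 counts per library. Rnase2a, an eosinophil-type ribonuclease, was at least 24.4-fold higher on the same floor.

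Others of the list rose from levels that untreated cells already had. Mrc1, the mannose receptor CD206, was at 47.9, 36.4 and 66.8 CPM in untreated cells and 133, 153 and 142 CPM in the remainder (1.55, SE 0.14, adjusted p = 9e-06). Egr2 rose by 1.67, Slc7a2, a transporter of cationic amino acids, by 3.61 and Pdcd1lg2, which encodes PD-L2, by 4.60 (5.68 without mouse 1). Pparg, a nuclear receptor of lipid metabolism, fell from 46.6, 54.6 and 48.7 CPM to 24.5, 24.1 and 27.7 CPM (-0.97, SE 0.10, adjusted p = 3e-05), and Fcrls by 1.08. Retnla, Clec10a, Ear2 and Matk were not called, with log2 fold changes from -0.44 to 0.26. These 4 are named to complete the list, after their values were seen.

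The IL-4 markers also differed between the remainder and the difference libraries. Over all genes, 556 (4.48%) were called between remainder and difference, 308 higher (2.48%) and 248 lower in the remainder. Of the 27 IL-4 markers, 22 were higher in the remainder than in the difference and 0 lower. Arg1 was 8.71 higher on the log2 scale, Pdcd1lg2 3.12, Egr2 2.54, Slc7a2 2.41 and Mrc1 2.36. Leaving out mouse 1, 2 or 3 moved the count over all genes to 311, 1253 and 89.

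Against cells given IL-4 alone, 2316 genes (18.6%) were called, 1219 higher (9.81%) and 1097 lower (8.83%) in the remainder. Of the IL-4 markers, 7 were higher and 15 lower than in those cells. Ccl22 (4.33), Arg1 (2.85), Socs1 (2.19) and Slc7a2 (1.51) were above the IL-4 libraries, and Rnase2a (-3.74), Pparg (-1.89), Atp6v0d2 (-1.20) and Mrc1 (-0.61) were below. Pparg thus lay below both untreated and IL-4 cells in the remainder, yet 0.87 above the difference libraries. These 3 contrasts share the remainder libraries and are not independent of each other.

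**Figure D3:**
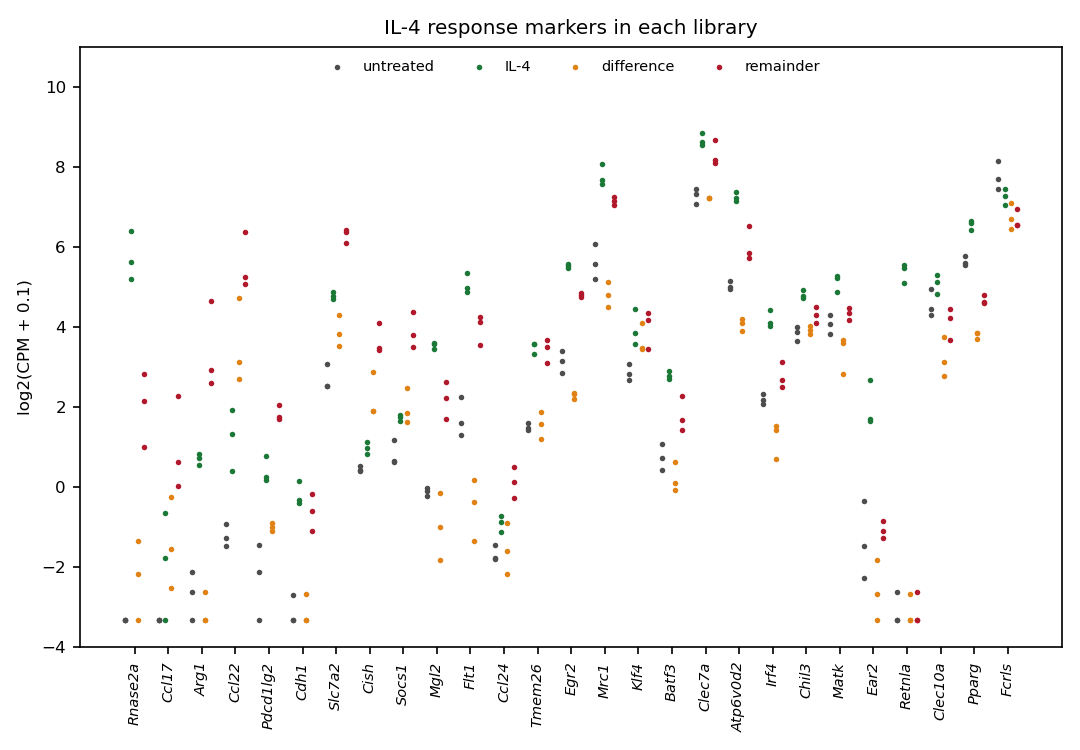
Each point is 1 library, with log2(CPM + 0.1) on the y axis and the 27 IL-4 response markers on the x axis, ordered by their log2 fold change of remainder against untreated. The remainder (red) lies above the difference (orange) in most genes, above the IL-4 libraries (green) for Arg1, Ccl22 and Socs1, and below them for Rnase2a, Pparg and Retnla.

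Chemokine genes diverged. Of 24 ligands tested, 14 were called higher and 7 lower, so that 21 of 24 passed the test beside 23.0% of all genes, and without mouse 3 it was 11 and 4. Ccl5, which attracts T cells and monocytes, rose from 13.0, 13.2 and 10.4 CPM to 2090, 2432 and 1602 CPM, 167-fold by the means (7.38, SE 0.13, adjusted p = 1.5e-11). Ccl22 rose by 7.25. In contrast, Ccl4 and Ccl3, macrophage inflammatory proteins, fell: Ccl4 from 51.5, 49.3 and 47.8 CPM to 10.3, 8.17 and 10.3 CPM (-2.37, SE 0.15, adjusted p = 3.6e-07) and Ccl3 by 1.78. Of 14 receptors, 5 were higher and 4 lower (64.3% called). Ccr7, which guides cells to lymph nodes, rose by 5.40 and Ccr1 by 2.96, while Cx3cr1 fell by 1.69, Cxcr3 by 1.56 and the formyl peptide receptor Fpr1 by 1.45.

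Inflammatory cytokines and enzymes also moved both ways, with 8 of 18 higher and 4 lower (66.7% called, beside 23.0% of all genes). Acod1, which makes itaconate, rose from 27.0, 17.8 and 20.5 CPM to 677, 527 and 605 CPM (4.81, SE 0.13, adjusted p = 8.6e-10). Nos2, the inducible nitric oxide synthase, had a ratio of 163 (counting interval 44.6 to 1350) on 0 to 0.0627 CPM in untreated cells. Tnf fell from 26.6, 26.8 and 21.0 CPM to 8.20, 6.76 and 7.36 CPM (-1.73, SE 0.13, adjusted p = 1.5e-06), Il10 by 1.99 and Ebi3, a subunit of IL-27, by 1.02. The groups did not overlap in any of these 5 genes, as was so in 2738 of the 2858 called genes and in 35.6% of all genes tested. Spp1, with the highest CPM of the list, was not called at -0.07.

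In the NF-κB list 6 of 25 were higher and 3 lower (36.0% called, beside 23.0% of all genes), or 6 and 8 with scaling by total count. The falls were near the share of all genes called lower (10.5%). Among the called genes were Traf1 (1.48), the mitochondrial superoxide dismutase gene Sod2 (1.29) and Nfkbiz, a nuclear IκB protein (-2.09). In the Toll-like receptor system 1 of 23 was higher and 4 were lower, near the share of all genes, and without mouse 3 edgeR called 0, with 1 higher and 4 lower at an unadjusted p under 0.05. Tlr13, Tlr9 and Tlr2 fell by 0.60, 0.50 and 0.38. Tlr2 was also 0.79 lower in the remainder than in the difference.

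Acute-phase and complement genes included some of the steepest rises. Of 13 acute-phase and antimicrobial genes, 7 were higher and 2 lower (69.2% called, beside 23.0% of all genes). It was 6 and 1 without mouse 1, and 6 and 0 by edgeR without mouse 3, with 1 lower at an unadjusted p under 0.05. Saa3, a serum amyloid A protein, went from 11.7, 11.6 and 8.66 CPM to 998, 1475 and 854 CPM (6.67, SE 0.31, adjusted p = 3.6e-08). Haptoglobin (Hp) rose by 3.98, and Orm1, with 20.4% of its 50-base stretches shared with other genes, by 5.77. Saa3 and Hp were 1.58 and 1.27 lower in the remainder than in the difference, so their level was intermediate between untreated cells and the difference. Of 16 complement genes, 7 were higher and 3 lower (62.5% called). Cfb, complement factor B, rose by 7.43 (6.72 without mouse 2 and 10.52 without mouse 1), but 79.5% of its exon bases overlap another gene on the same strand. The receptors C5ar1 and C5ar2 fell by 0.93 and 0.47, the latter not called without any 1 of the mice.

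**Figure D4:**
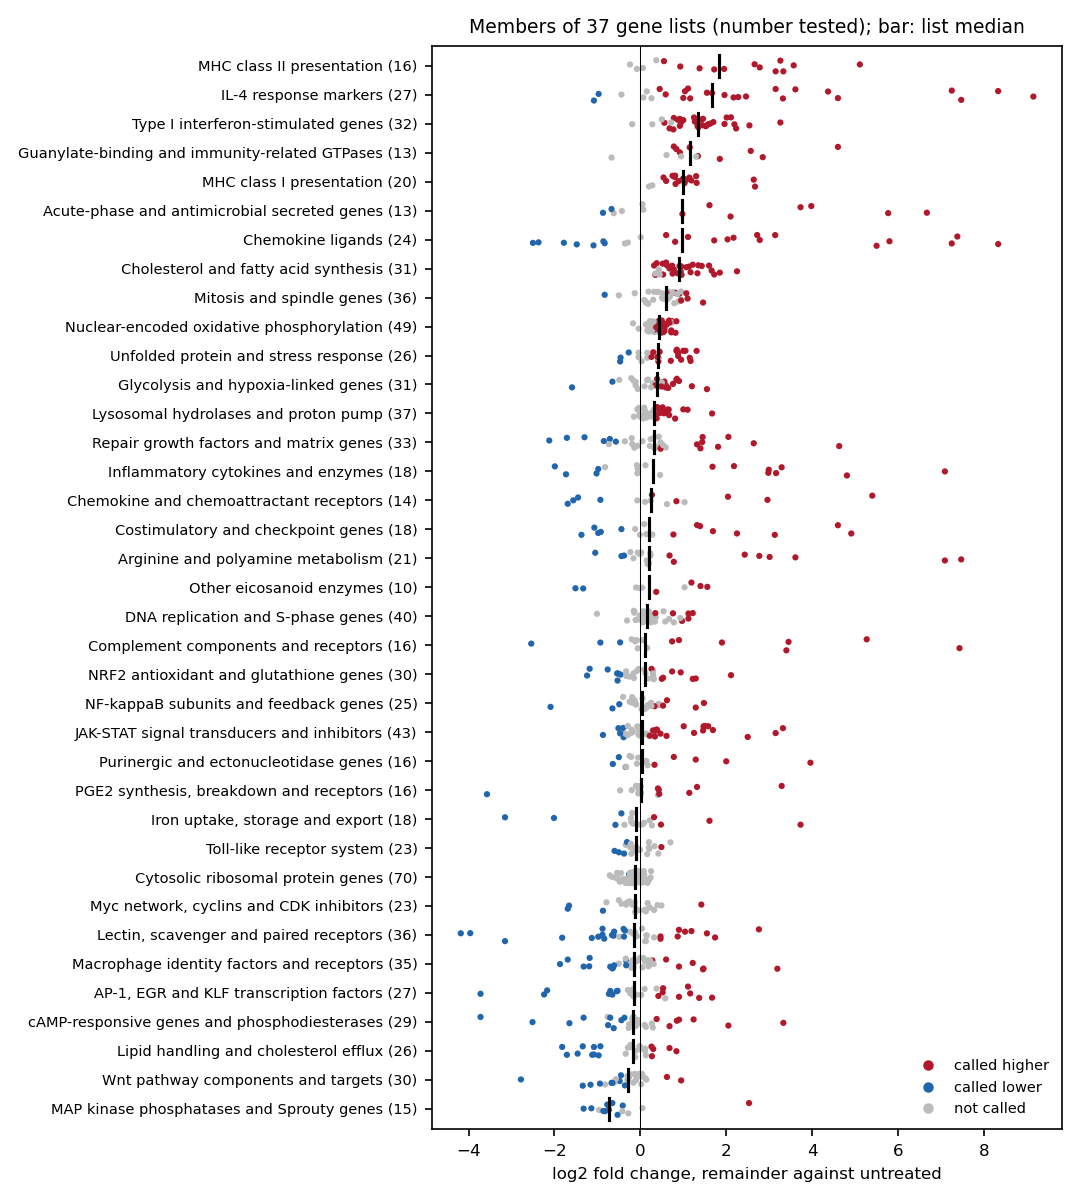
Each point is 1 tested gene, at its log2 fold change of remainder against untreated on the x axis, in 37 gene lists ordered by their median (black bar). MHC class II presentation has the highest median at 1.83 and MAP kinase phosphatases and Sprouty genes the lowest at -0.73, and several lists near 0 hold both steep rises and steep falls.

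Genes of sterol and fatty acid synthesis were mostly higher. Of 31 genes of cholesterol and fatty acid synthesis, 28 were called higher and 0 lower (90.3%, beside 23.0% of all genes), with a median of 0.91. Their summed CPM was up by 0.80 on the log2 scale in each of the 3 mice. Without mouse 3, 19 of 30 were called higher and 0 lower. Mvd, an enzyme of the mevalonate pathway, rose from 24.9, 28.1 and 25.0 CPM to 90.2, 70.5 and 75.9 CPM (1.60, SE 0.11, adjusted p = 9.7e-07), and Scd2, a stearoyl-CoA desaturase, by 2.25. Acaca, Elovl6 and Me1 were not called. Of 26 genes of lipid handling and efflux, 53.8% were called. There were 5 rises and 9 falls (2 and 7 without mouse 3, 3 and 10 without mouse 1, 3 and 13 with scaling by total count), and 12 were not called. The summed CPM of the list fell in all mice, by 0.63 to 0.95 on the log2 scale, but without Apoe the log2 ratios were 0.01, -0.29 and -0.15. Lpl, the lipoprotein lipase, went from 1220, 1207 and 1467 CPM to 396, 511 and 657 CPM (-1.34, SE 0.12, adjusted p = 7.4e-06). Angptl4, its inhibitor, fell by 1.82, and Fabp5, a fatty acid binding protein, rose by 0.84.

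Of 37 lysosomal hydrolase and proton pump genes, 18 were called higher and 0 lower (48.6%, beside 23.0% of all genes), and 8 were higher without mouse 3. Ctsz and Ctsk, cathepsins, rose by 1.10 and 1.67. Of 49 nuclear genes of oxidative phosphorylation, 31 were called higher and 0 lower (63.3%), with a median of 0.43. Atp5b, the β subunit of ATP synthase, went from 478, 603 and 562 CPM to 1065, 881 and 988 CPM (0.84, SE 0.12, adjusted p = 0.00034). Calls in this list came to 19 without mouse 1, 41 without mouse 2 and 13 without mouse 3, all higher. DESeq2 also called 0 genes lower in the class I, class II, guanylate-binding, sterol synthesis, lysosomal and oxidative phosphorylation lists, and at an unadjusted p under 0.05 edgeR had 1 lower, in the last of these. By comparison, 0 of 70 cytosolic ribosomal protein genes were higher and 2 were lower (2.86%), 14 with scaling by total count, 8 without mouse 1 and 0 without mouse 3, while without mouse 2 there were 2 higher and 1 lower. Without mouse 3, 2 were lower at an unadjusted p under 0.05.

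Glycolysis and hypoxia-linked genes were higher in 16 of 31 and lower in 2 (58.1% called, beside 23.0% of all genes). It was 6 and 1 without mouse 3, 19 and 1 without mouse 2, and 12 and 4 with scaling by total count. Slc2a6, a hexose transporter, rose by 1.55 and Hif1a by 1.20, and Ndrg1, a hypoxia-induced gene, fell by 1.59. In the unfolded protein and stress response, 17 of 26 were higher and 3 lower (76.9% called). It was 16 and 1 without mouse 2, and 9 and 0 by edgeR without mouse 3, with 2 lower at an unadjusted p under 0.05. The chaperone Calr rose from 741, 907 and 796 CPM to 2186, 1825 and 2064 CPM (1.31, SE 0.11, adjusted p = 3.5e-06). Antioxidant genes were mixed, with 8 of 30 higher and 7 lower, or 7 and 13 with scaling by total count. Slc7a11, the cystine transporter, rose by 2.11 and the catalase gene Cat fell by 1.18.

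Iron genes moved both ways. Slc40a1, which encodes the iron exporter ferroportin, fell from 439, 381 and 483 CPM to 78.7, 120 and 126 CPM (-2.01, SE 0.14, adjusted p = 7.9e-07). Ceruloplasmin (Cp) rose by 3.73 and lipocalin 2 (Lcn2) by 1.61, and Fth1 rose as given above. Of 18 genes in the list 4 were higher and 4 lower (44.4% called, beside 23.0% of all genes), and 2 and 2 without mouse 3. In arginine and polyamine metabolism, 8 of 21 were higher, led by Arg1, Nos2 and Slc7a2, and 3 lower, with spermine synthase (Sms) at -1.05, and 1 was lower without mouse 2 or mouse 3. The share called was 52.4%.

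MAP kinase feedback genes were mostly lower. Of 15 MAP kinase phosphatase and Sprouty genes, 10 were lower and 1 higher (73.3% called, beside 23.0% of all genes), with a median of -0.73. Without mouse 3 it was 3 lower and 1 higher. Dusp1 fell from 34.2, 38.6 and 33.9 CPM to 16.7, 12.8 and 13.0 CPM (-1.32, SE 0.14, adjusted p = 2.4e-05). Dusp4 was the exception, from 16.3, 25.2 and 25.5 CPM to 142, 108 and 138 CPM (2.53, SE 0.18, adjusted p = 8.7e-07), and it was 2.57 higher in the remainder than in the difference. In the AP-1, EGR and KLF list 8 of 27 were higher and 8 lower (59.3% called), and 5 and 5 without mouse 3. Egr1, Egr3 and Fosb fell by 2.17, 2.24 and 3.72, whereas Egr2, an IL-4 marker also, and Klf4 rose.

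Genes responsive to cAMP were mixed as well, with 7 of 29 higher and 9 lower (55.2% called, beside 23.0% of all genes), and 4 and 6 without mouse 3. Nr4a1 fell by 2.51 and its relative Nr4a3 rose by 3.33, and the matrix protein gene Thbs1 rose by 2.05. Among purinergic genes 5 of 16 were higher and 3 lower, or 5 and 5 with scaling by total count, and without mouse 3 edgeR called 4 higher and 0 lower, with 3 lower at an unadjusted p under 0.05. The adenosine receptors Adora2a and Adora2b rose by 3.96 and 1.29, and the ATP-hydrolysing enzyme gene Entpd1 fell by 0.34, a call lost without mouse 3.

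**Figure D5:**
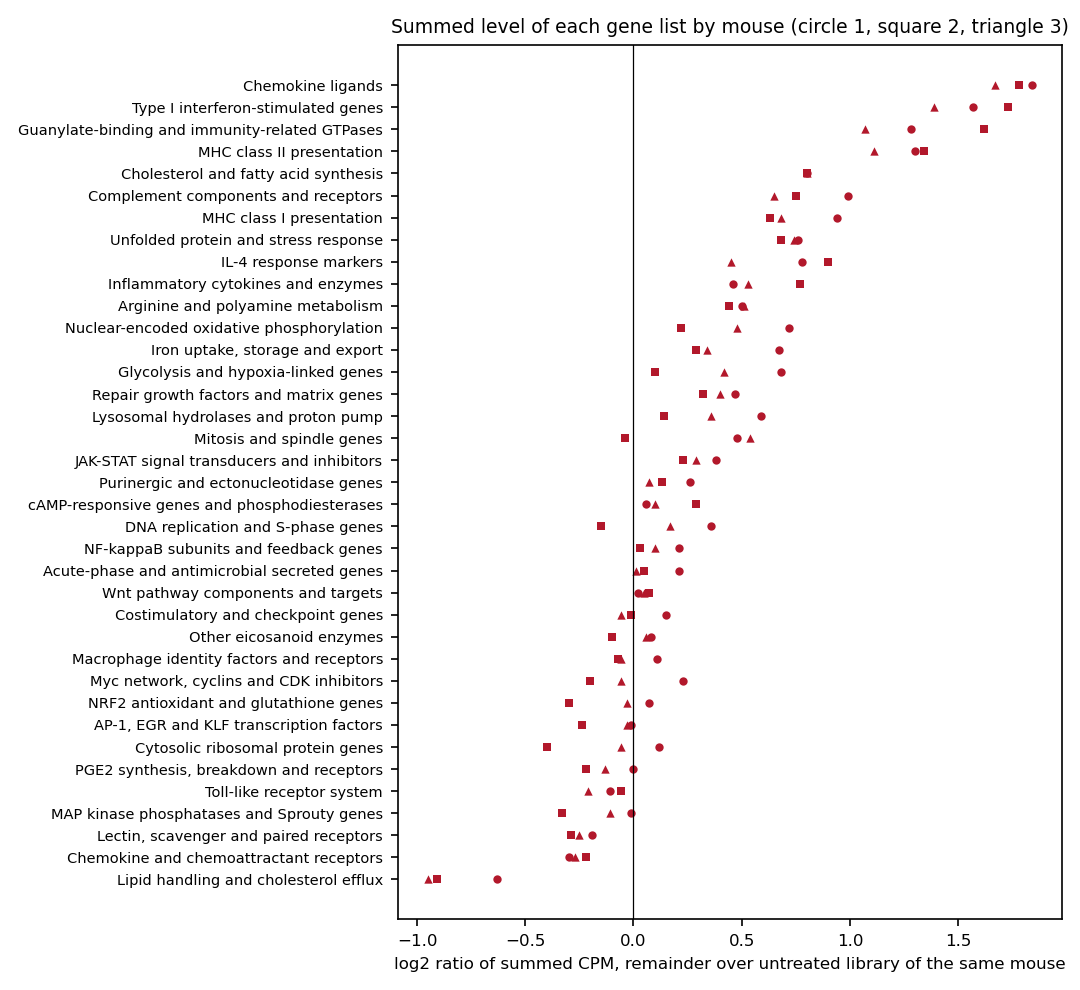
Each marker is the log2 ratio of the summed CPM of a gene list in the remainder library over the untreated library of the same mouse, for 37 lists (circle mouse 1, square mouse 2, triangle mouse 3). The sums of chemokine ligands lie at 1.67 to 1.84 (0.65 to 1.01 without Ccl5) and those of lipid handling genes at -0.95 to -0.63 (-0.29 to 0.01 without Apoe), and mouse 2 lies on the other side of 0 from mice 1 and 3 for mitosis and replication genes.

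Surface receptors of macrophages changed in both directions. Of 36 lectin, scavenger and paired receptors, 9 were higher and 15 lower (66.7% called, beside 23.0% of all genes), and 7 and 8 without mouse 3. Clec4e, the receptor Mincle, rose by 2.76, and Cd163, the hemoglobin scavenger receptor, fell from 10.9, 7.14 and 11.6 CPM to 1.06, 1.05 and 1.18 CPM (-3.15, SE 0.18, adjusted p = 2e-07). Among identity factors and receptors, 7 of 35 were higher and 11 lower (51.4% called), and 5 and 7 without mouse 3. Fcgr2b, the inhibitory Fc receptor, rose from 50.9, 42.3 and 43.3 CPM to 405, 471 and 371 CPM (3.19, SE 0.10, adjusted p = 4.7e-09), and Gas6, a bridge to apoptotic cells, fell by 1.32. Itgax, the integrin CD11c, rose from 20.1, 25.2 and 24.0 CPM to 240, 232 and 260 CPM (3.40, SE 0.12, adjusted p = 8.4e-09) and was 2.06 above the difference.

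Costimulatory and checkpoint genes were higher in 8 of 18 and lower in 5 (72.2% called, beside 23.0% of all genes). Cd274, which encodes PD-L1, rose by 2.25 and Slamf8 by 3.13, and Cd83 fell by 1.37. Repair growth factors and matrix genes were higher in 10 of 33 and lower in 6 (48.5% called). Mmp14, a membrane-bound metalloproteinase, rose by 2.64. Tgfb1, a transforming growth factor, was not called (-0.14, adjusted p = 0.35), Tgfb3 fell from 1.94, 1.93 and 1.63 CPM to 0.621, 0.430 and 0.197 CPM (-2.12), and Tgfb2 had at most 4 counts in any of these libraries.

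Calls among proliferation genes depended on single mice. In the mitosis list 7 of 36 were higher and 1 lower, a share called of 22.2% beside 23.0% of all genes. Without mouse 2, 18 were higher, and without mouse 3 it was 1. Kif20a, a mitotic kinesin, was at 7.58, 4.37 and 5.39 CPM in untreated cells and at 16.8, 5.59 and 15.9 CPM in the remainder, so that mouse 2 lay within the untreated range, and its call was lost without mouse 1 or mouse 3. Replication genes were higher in 6 of 40 (15.0%, below the share of all genes), in 2 without mouse 1 or mouse 3 and in 13 without mouse 2. In the list of the Myc network, cyclins and their inhibitors 1 of 23 was higher and 3 were lower, a share called below that of all genes. The lower calls became 5 without mouse 1 and 7 with scaling by total count, and without mouse 2 there were 3 higher and 6 lower. Ccnd1, the cyclin D1 gene, fell by 1.69 and Myc by 0.87, and both were above the difference libraries, by 1.56 and 1.49.

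Where the remainder differed from the difference libraries was uneven over the lists. In the class II list 6 of 16 genes were higher than in the difference and 0 lower, and in the chemokine ligands 6 of 24 and 0. None of the 32 interferon-stimulated genes, the 20 class I genes, the 31 synthesis genes of sterols and fatty acids or the 49 oxidative phosphorylation genes was called between remainder and difference by edgeR or by DESeq2. At an unadjusted p under 0.05, 5, 4, 1 and 3 of them were higher in the remainder and 0 lower. With 4.48% called over all genes, lists of these sizes would hold few calls, so 0 is near that share. Irf7, Ccl5, Mvd and B2m had log2 differences of 0.15, -0.15, 0.11 and -0.09. Against cells given IL-4 alone, 28 of the 32 interferon-stimulated genes, 18 of 20 class I genes and 23 of 31 synthesis genes were higher in the remainder and 0 lower. Over all genes, 9.81% were higher and 8.83% lower in that contrast.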

How the data were processed

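RNA of BMDMs from 3 mice was sequenced as single reads on an Illumina HiSeq in 12 samples of 4 labelled groups. Per the labels and the submitters' processing notes, the tools were FastQC 0.11.7, Trimmomatic 0.36, STAR 2.6.0, SAMtools 1.9, HTSeq 0.11.1 and DESeq2 1.24.0, with mm10 as the build. The authors deposited whole-number counts per gene without normalization. 48144 of 48526 identifiers were paired with a symbol, 0 rows named no gene and 0 columns were left unmapped. Whether counting used strand is not given in the sources used here.

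The remainder and difference libraries were computed from the deposited counts as described. They were tested with the untreated and IL-4 columns in 1 fit of 12 libraries, with edgeR 4.0.16 in R 4.3.3 (quasi-likelihood test, TMM, a term for the mouse, a minimum of 10 counts in 3 or more libraries, Benjamini-Hochberg adjustment over all genes tested). The same mouse gave a culture to each group, so the labels pair the libraries. Deviations of same-mouse untreated and remainder libraries from their group means correlated at -0.213, -0.417 and 0.079 across genes. On simulated counts the test recovered 94 of 100 genes changed by 1 and 99 of 100 changed by 2 on the log2 scale in this comparison, on 12247 genes. Of its 202 calls, 9 were false. Only well-counted genes were changed and no mouse effect was simulated, so these rates do not cover genes with few counts. Intervals (95%) and floors (3 counts per library) cover counting error only. Alternatives were other scalings and filters, DESeq2 1.42.0, thinned counts, fewer libraries, no mouse term, each mouse left out and the deposited columns themselves.

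Named genes were the 12 highest and 12 lowest called log2 fold changes that went 1 way in all mice with at least 8 CPM in the higher group, the 8 largest gains and 8 largest losses of CPM, genes the study names for cultured macrophages, and for each list up to 3 rises and 3 falls with at least 1 CPM and the member with the highest CPM. Any other gene named was chosen after its values were seen, also where its paragraph does not say so. A few genes that the rule names are not reported here. The comparison, the 44 gene lists (1095 symbols, 66 in more than 1 list) and the rule were chosen with earlier results of these data known. Overlaps of exons and shared 50-base stretches came from GENCODE vM21. Columns of this series other than gene counts were not used here.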

Additional observations from a re-analysis of the deposited data

How the results depend on the processing

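The comparison of remainder and untreated libraries called 2858 genes, and 1235 with only the compared libraries, 1743 at an adjusted p under 0.01, 892 with a log2 fold change of 1 or more in size, and 1165 to 3761 when a mouse was left out. Without the replicate block for the mouse 3137 genes were called. The fit of the deposited Wnt3a+IL4 columns against untreated cells, which hold the remainder and the difference together, called 4280. Between remainder and difference the 556 calls became 1316 with all genes of at least 1 count, 326 with only the compared libraries, 255 at an adjusted p under 0.01, 169 with the size limit and 89 to 1253 when a mouse was left out. Between remainder and IL-4 cells the 2316 calls became 1401, 721 and 906 to 2504 under the last 3 of these. Other settings stayed within 1.5 times of each count. Why leaving out mouse 3 lowers the counts was not tested.

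Of 2599 values of 237 named genes under the alternatives, 2411 kept their direction and their side of the threshold, 160 lost their call, 15 gained one and 13 changed sign. The sign changed only in genes that were not called. With total count scaling Pla2g15 was at -0.08, Tnfaip2 at -0.06, Lyz2 at -0.05 and Adam8 at -0.05. When a mouse was left out, log2 fold changes ran from -0.17 to 0.08 for Ptger4, -0.12 to 0.14 for Pla2g15, -0.20 to 0.06 for Alox5ap, -0.20 to 0.08 for Spp1, -0.03 to 0.11 for Tnfaip2, -0.01 to 0.10 for Lyz2, -0.10 to 0.26 for Adam8 and -1.35 to 0.31 for Col1a1.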
